A study of Mus musculus with 8 samples.

Results

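The T cell receptor complex and the first steps of its signal, here 9 genes, were followed across RNA-seq libraries of cultured mouse CD8 T cells. They were chosen by symbol as Cd3d, Cd3e, Cd3g, Cd247, Lck, Zap70, Lat, Lcp2 and Cd5, and all 9 were found among the 31815 genes of the deposited table. All 9 passed the filter on low counts, which left 13329 genes to test.

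Every group began as naive CD3+CD8+ spleen cells of OT-I mice, strain C57BL/6-Tg(TcraTcrb)1100Mjb/J, which bear a transgenic T cell receptor specific for an ovalbumin (OVA) peptide. The cells were cultured with that peptide for 3 days, transduced after 24 h and sorted on day 5. TOXFL-positive cells carried a vector for TOXFL, the full-length TOX protein, followed by an internal ribosome entry site and GFP, and were taken from the brightest 20% of GFP-positive cells. TOXFL-negative cells were the GFP-negative cells of TOXFL cultures. TOXdeltaN-positive cells carried the same design with TOXdeltaN, the other protein that the study ascribes to the Tox gene, and TOXdeltaN-negative cells were their GFP-negative counterparts. Each of the 4 groups had 2 libraries, 8 in all. Construct, GFP and sort go together in the GFP-positive cells, and cells with a vector for GFP alone were not analysed here. All cells were isolated by CD3 and CD8 at the surface, so the CD3 chains also defined the starting population of every group.

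A T cell receptor has no signalling tail of its own and passes its signal through the CD3 delta, epsilon and gamma chains and the zeta chain, whose tails carry tyrosine motifs. The kinase LCK phosphorylates these motifs, ZAP-70 docks on them and phosphorylates the membrane adaptor LAT, and LAT together with SLP-76, the product of Lcp2, gathers the enzymes that open the calcium, Ras and protein kinase C branches. CD5 sits beside the receptor and dampens this signal. Surface CD5 is widely used as a gauge of how strongly a T cell has been signalling. TOX binds DNA through an HMG box and is known for its part in T cell development and in the exhausted state of chronically stimulated CD8 T cells.

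Total counts per library lay between 25059112 and 31240067, and between 16577 and 16943 genes had a count. Tox had 105 and 126 CPM, counts scaled to a common library size, in TOXFL-positive and 25.1 and 34.4 CPM in TOXFL-negative cells, and 107 and 82.9 CPM in TOXdeltaN-positive and 21.8 and 32.2 CPM in TOXdeltaN-negative cells, so all 4 positive libraries lay above all 4 negative ones. Summed markers of other lineages were low in every library, at most 17.5 CPM for 5 B cell genes, 8.50 CPM for 3 NK cell genes, 5.44 CPM for 3 CD4 T cell genes, 3.01 CPM for 5 myeloid genes and 4.07 CPM for 4 erythroid genes. Cd8a and Cd8b1 together had 1250 to 1387 CPM in positive and 1364 to 1539 CPM in negative libraries. Mitochondrially encoded genes took 0.708% and 0.450% of the counts in TOXFL-positive and 0.832% and 0.834% in TOXFL-negative cells, and 0.764% and 0.798% in TOXdeltaN-positive and 0.909% and 0.894% in TOXdeltaN-negative cells. All 4 positive libraries thus lay below all 4 negative ones in this share, with TOXFL-positive replicate 2 the lowest. TOXdeltaN-positive replicate 2 stood apart by transcript length: relative to replicate 1 of its group the median gene over 8 CPM was 0.26 higher on the log2 scale among transcripts of at most 1000 bases and -0.17 among those over 3000 bases, while the same medians stayed between -0.11 and 0.054 in the other groups. Whether the 2 libraries of a group stem from separate animals or cultures is not in the labels. The p-values therefore reflect spread among these libraries alone, and that spread may be technical. In bulk RNA, fewer cells of a kind and less RNA per cell cannot be told apart.

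**Figure D1:**
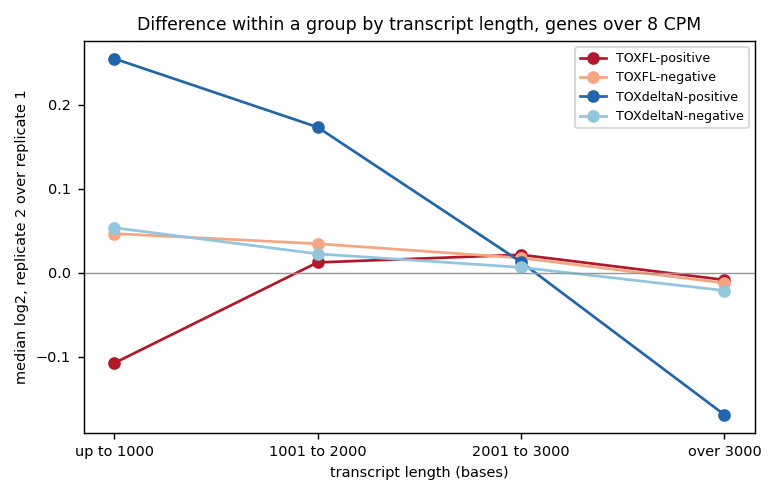
Median log2 difference of replicate 2 over replicate 1 in each group, by transcript length in bases, for genes over 8 CPM, with 1 line per group. TOXdeltaN-positive cells show the steepest slope of the 4 groups, from 0.26 for transcripts of at most 1000 bases to -0.17 for those over 3000 bases.

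All 9 genes were abundant, and their spread across the libraries differed from gene to gene. Their mean levels lay between the 90.8th percentile of tested genes for Cd247 and the 99.6th for Lck, and together they took 0.423% to 0.460% of all counts, most in TOXdeltaN-positive replicate 2. Across the 8 libraries the coefficient of variation was smallest for Lck at 4.14%, Cd3e at 4.37%, Lcp2 at 5.43%, Zap70 at 5.68% and Cd247 at 7.15%. It was larger for Lat at 10.6%, Cd3d at 10.9%, Cd3g at 11.5% and Cd5 at 13.1%. The median over the 1231 genes at least as abundant as Cd247, the lowest member, was 8.75%. Against that median, which was not matched to the level of each member, 5 of the members varied less and 4 varied more.

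Levels can be compared between genes only per length. In CPM per kilobase of the principal transcript, Cd3g averaged 576 ± 66.1, Lck 569 ± 23.5, Cd3e 524 ± 22.9, Cd3d 336 ± 36.6 and Lat 198 ± 21.0 (SD, n = 8 libraries). Zap70 followed at 116 ± 6.58, Cd247 at 112 ± 8.02, Cd5 at 98.3 ± 12.9 and Lcp2 at 86.2 ± 4.68 on the same scale. The neighbours Cd3g and Lck, Lck and Cd3e, Zap70 and Cd247, Cd247 and Cd5, and Cd5 and Lcp2 lay within their spread of each other, while the steps from Cd3e to Cd3d, from Cd3d to Lat and from Lat to Zap70 were larger than it. Divided instead by all exonic bases of a gene, the levels per kilobase were 424 for Lck, 299.5 for Cd3d, 188 for Cd3e and 180.2 for Cd3g. The same 4 genes thus led on both scales, but in another order. Cd247 was last on that scale at 34.4 CPM per kilobase.

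**Figure D2:**
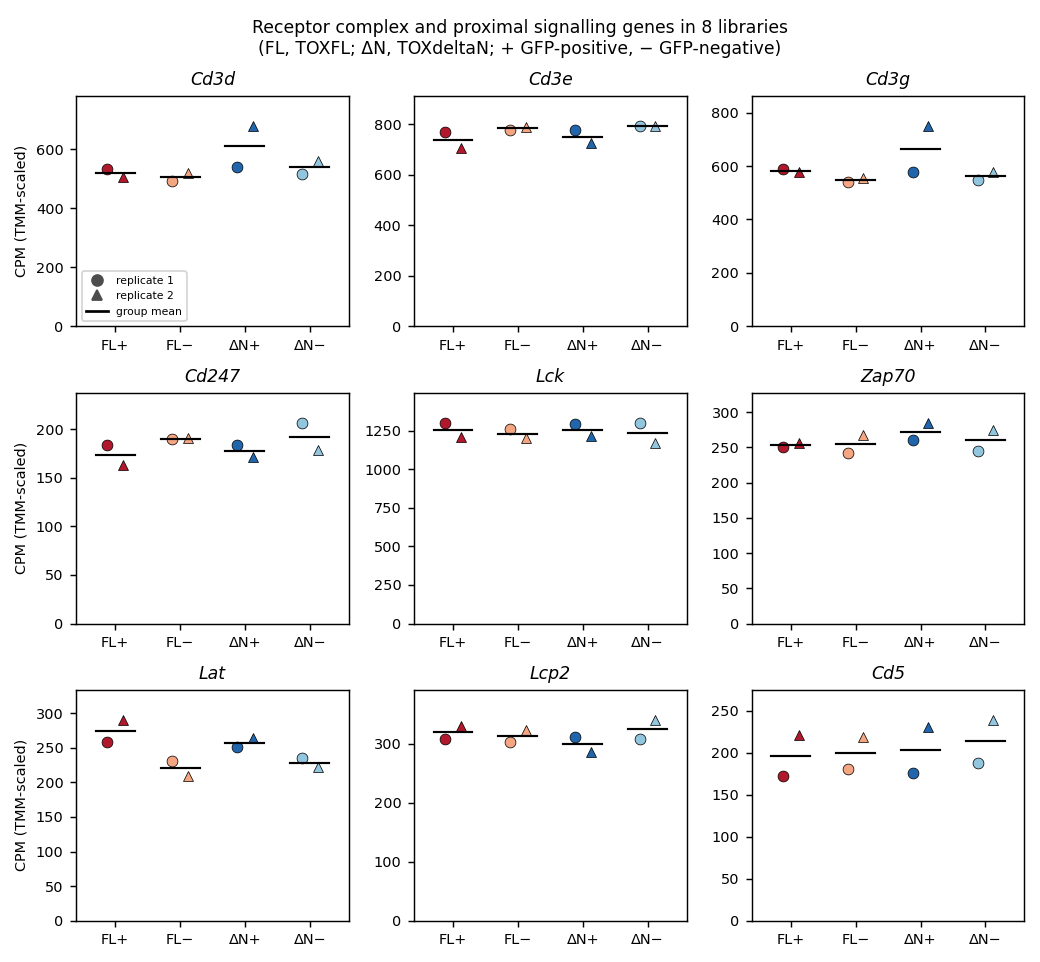
CPM of each of the 9 genes in the 8 libraries, 1 point per library, by group with the group mean. The plot shows Lat higher in every positive library, Cd3e lower in every positive library, and 1 high TOXdeltaN-positive library for Cd3d and Cd3g.

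None of the 9 genes passed the test in any comparison of the groups. With edgeR's quasi-likelihood test and Benjamini-Hochberg adjustment over all 13329 genes at a threshold of 0.05, called genes made up 0.045% in TOXFL-positive against TOXFL-negative, 0.03% in TOXdeltaN-positive against TOXdeltaN-negative and 2.42% for the average effect of being GFP-positive over both constructs. For the TOXFL effect minus the TOXdeltaN effect, for the positive groups against each other and for the negative groups against each other the share was 0%. At an unadjusted p under 0.05, 1 of the 9 genes, Lat, passed with TOXFL, where 13.4% of all genes did, and again for the average effect, where 21.9% did. For the same 9 genes the count was 0 with TOXdeltaN (12.2% of all genes), for the difference of effects (2.39%), for the positive groups (5.76%) and for the negative groups (2.46%). DESeq2 called 1 of the 9, Lat for the average effect, and limma-voom none. DESeq2 called 2.36% of all genes with TOXFL, 0.908% with TOXdeltaN, 0.0525% for the difference of effects, 7.94% for the average, 0.143% for the positive groups and 0.06% for the negative groups. The median absolute log2 fold change of the 9 genes was 0.040 with TOXFL, against 0.17 over all tested genes, and 0.11 with TOXdeltaN, against 0.18. The medians over all genes were not matched to the level of the 9, which lay at or above the 90.8th percentile. The gap can therefore not be read as particular to these genes. Adding the replicate number to the model as a block gave another fit, the blocked fit, which called Lat alone, and for the average effect. Its shares over all genes were 3.48% with TOXFL, 1.65% with TOXdeltaN, 12.7% for the average, 0.0075% for the positive groups and 0% for the negative groups and the difference of effects.

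The CD3 delta, gamma and epsilon chains, the receptor's signalling subunits, are encoded side by side on chromosome 9. In GRCm38 coordinates, Cd3g (ENSMUSG00000002033.14) spans 44969572 to 44980431 on the minus strand, Cd3d (ENSMUSG00000032094.8) 44981786 to 44987339 on the plus strand and Cd3e (ENSMUSG00000032093.7) 44998740 to 45009627 on the minus strand. Cd3d and Cd3g point away from each other with starts 1355 bases apart, and the start of Cd3e lies 27841 bases from that of Cd3d. TOXdeltaN-positive replicate 2 was the highest library in Cd3d and Cd3g, and the correlation of these genes without it is not given. Over all 8 libraries Cd3d and Cd3g varied together, and Cd3e did not vary with them. The promoters of the 3 genes are shown for that reason. They are RefSeq sequences of GRCm38.p6, 5' to 3' on the gene's strand, from 250 bases before to 50 after the start, with capitals for CAGGAAG or its reverse complement CTTCCTG, an ETS-type motif.
Cd3d promoter, chr9:44981536-44981835, plus strand: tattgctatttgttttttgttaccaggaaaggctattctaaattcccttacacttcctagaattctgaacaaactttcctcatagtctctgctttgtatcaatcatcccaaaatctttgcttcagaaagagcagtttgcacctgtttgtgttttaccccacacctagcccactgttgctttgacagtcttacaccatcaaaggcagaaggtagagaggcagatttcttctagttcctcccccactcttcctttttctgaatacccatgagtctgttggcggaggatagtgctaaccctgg
Cd3g promoter, chr9:44980382-44980681, minus strand: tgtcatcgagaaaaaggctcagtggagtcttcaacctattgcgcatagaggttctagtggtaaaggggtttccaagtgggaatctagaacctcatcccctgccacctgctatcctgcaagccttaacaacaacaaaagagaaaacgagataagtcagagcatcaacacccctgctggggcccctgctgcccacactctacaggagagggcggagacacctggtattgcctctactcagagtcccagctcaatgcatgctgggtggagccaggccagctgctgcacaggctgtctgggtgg
Cd3e promoter, chr9:45009562-45009861, minus strand: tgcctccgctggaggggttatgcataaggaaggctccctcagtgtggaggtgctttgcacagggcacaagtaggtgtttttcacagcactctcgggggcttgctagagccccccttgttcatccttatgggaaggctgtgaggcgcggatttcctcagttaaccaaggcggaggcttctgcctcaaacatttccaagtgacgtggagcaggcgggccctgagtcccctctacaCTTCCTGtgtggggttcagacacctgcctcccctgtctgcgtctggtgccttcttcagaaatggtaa
The Cd3e window holds the motif 17 bases before the start. These letters are in neither of the Cd3d and Cd3g windows. Any link between the motif and the levels of these genes was not tested.

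Cd3d had 535 and 505 CPM in TOXFL-positive and 492 and 519 CPM in TOXFL-negative cells, and 540.2 and 680.1 CPM in TOXdeltaN-positive and 517 and 561 CPM in TOXdeltaN-negative cells. Cd3g had 587 and 576 CPM in TOXFL-positive and 540.2 and 554 CPM in TOXFL-negative cells, and 577 and 751 CPM in TOXdeltaN-positive and 547 and 579.6 CPM in TOXdeltaN-negative cells. In both genes TOXdeltaN-positive replicate 2, the library with the steep length profile, was the highest of the 8. Cd3g did not overlap between the TOXFL groups, being higher in both positive libraries, whereas Cd3d overlapped in both construct comparisons. The log2 fold changes were 0.040 (SE 0.114) for Cd3d and 0.089 (SE 0.118) for Cd3g with TOXFL, and 0.18 (SE 0.114) and 0.24 (SE 0.118) with TOXdeltaN. Adjusted p-values in edgeR's quasi-likelihood test lay between 0.444 and 0.910.

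The higher means of Cd3d and Cd3g in TOXdeltaN-positive cells rested on 1 library. Without TOXdeltaN-positive replicate 2, the TOXdeltaN effects were 0.0027 for Cd3d and 0.034 for Cd3g on the log2 scale. Without TOXdeltaN-positive replicate 1, they were 0.33 and 0.41. Leaving out that library also gave average effects of 0.19 and 0.25, and -0.38 and -0.37 for TOXFL-positive against TOXdeltaN-positive. In these fits TOXdeltaN-positive replicate 2 stood alone for its group, so they give sizes of effect only. After each library was corrected for transcript length in 20 length classes, a step added after the data were seen, the TOXdeltaN effects were 0.063 for Cd3d and 0.040 for Cd3g. Cd3g and Cd3d have transcripts of 1023 and 1617 bases. In TOXdeltaN-positive replicate 2 the median gene of over 1000 and up to 2000 bases was higher than in replicate 1. The log2 difference was 0.17. Lat, of 1235 bases, was also higher in replicate 2 of that group, at 264 against 250.5 CPM. Cd3e and Cd247, of 1462 and 1632 bases, were lower, at 725 against 777 and 171 against 184 CPM. The cause of the high Cd3d and Cd3g values in that library was not tested.

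Cd3e differed the other way by a small amount. It had 768 and 706 CPM in TOXFL-positive and 778 and 791 CPM in TOXFL-negative cells, and 777 and 725 CPM in TOXdeltaN-positive and 795 and 794 CPM in TOXdeltaN-negative cells. All 4 positive libraries lay below all 4 negative ones, an ordering shown by 8.08% of tested genes, though the highest positive and the lowest negative library nearly met. The mitochondrial share of counts had the same ordering, and its part in the Cd3e difference was not tested. Group means were 737 ± 44.2 CPM in TOXFL-positive, 784 ± 9.61 in TOXFL-negative, 751 ± 37.2 in TOXdeltaN-positive and 794 ± 0.883 in TOXdeltaN-negative cells (SD, n = 2 each). The log2 fold change was -0.090 with TOXFL, -0.081 with TOXdeltaN and -0.085 on average (SE 0.0587, 95% interval -0.22 to 0.046, edgeR adjusted p 0.421). An antisense gene, Gm48719, shares 135 bases with Cd3e and had 7 to 26 counts, which without strand cannot be told apart from Cd3e reads.

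Cd247 encodes the zeta chain, the subunit with the longest signalling tail, and lies on chromosome 1 (ENSMUSG00000005763.15, 165788681 to 165877277, plus strand). It had 183 and 163 CPM in TOXFL-positive and 189.7 and 190.5 CPM in TOXFL-negative cells, and 184 and 171 CPM in TOXdeltaN-positive and 206 and 178 CPM in TOXdeltaN-negative cells. Both TOXFL-positive libraries lay below both negative ones, and the TOXdeltaN groups overlapped. Log2 fold changes were -0.14 with TOXFL and -0.11 with TOXdeltaN, and the average of -0.12 (SE 0.0737, 95% interval -0.29 to 0.041) had an adjusted p of 0.349 in edgeR's quasi-likelihood test. Pou2f1 on the other strand shares 3007 exonic bases with Cd247, none of them in the principal transcript, and had 590 to 847 counts. Gm16565 on the same strand shares 206 exonic bases, 198 of them in the principal transcript, and had 21 to 42 counts.

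For Cd3e and Cd247 the length correction moved the values away from 0. Their average effects became -0.18 (adjusted p 0.176) and -0.21 (adjusted p 0.199) in edgeR with the correction alone, where 2.91% of genes were called. In the blocked fit with the correction they were -0.19 (SE 0.0516, adjusted p 0.0450) and -0.21 (SE 0.0530, adjusted p 0.0315), past the threshold in edgeR's quasi-likelihood test, where 11.8% of genes were called and 5.74% called lower. Without the correction the blocked fit gave -0.087 (adjusted p 0.295) and -0.13 (adjusted p 0.192). The call of Cd3e was kept in 1 of 8 omissions, that without TOXdeltaN-positive replicate 1, with edgeR adjusted p-values between 0.00138 and 0.228 over all 8. That of Cd247 was kept in 3 of 8, those without TOXFL-negative replicate 1 or without either TOXdeltaN-positive library, with edgeR adjusted p-values between 0.00522 and 0.153.

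Neither kinase differed between positive and negative cells by the test. Lck, the Src-family kinase that starts the signal, lies on chromosome 4 (ENSMUSG00000000409.14, 129548344 to 129573641, minus strand). It had 1299 and 1207 CPM in TOXFL-positive and 1258 and 1200.0 CPM in TOXFL-negative cells, and 1293 and 1213 CPM in TOXdeltaN-positive and 1300.2 and 1170.3 CPM in TOXdeltaN-negative cells. The groups overlapped throughout, and replicate 1 was the higher library in all 4. The average effect was 0.024 on the log2 scale with a 95% interval of -0.11 to 0.16 (edgeR adjusted p 0.858), and between the positive groups the difference was -9.0e-05.

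Zap70, the kinase that docks on the phosphorylated CD3 and zeta tails, lies on chromosome 1 (ENSMUSG00000026117.10, 36761798 to 36782818, plus strand). It had 250.4 and 257 CPM in TOXFL-positive and 242 and 268 CPM in TOXFL-negative cells, and 259.7 and 285 CPM in TOXdeltaN-positive and 245 and 274 CPM in TOXdeltaN-negative cells. Positive and negative libraries overlapped for both constructs, and replicate 2 was the higher library in each group. Its average effect was 0.030 (95% interval -0.13 to 0.19, edgeR adjusted p 0.843). The average-effect intervals of both kinases thus end below a log2 difference of 0.20 in either direction.

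Lat, the membrane adaptor that ZAP-70 phosphorylates, had the largest difference of the 9 genes with TOXFL and on average. It lies on chromosome 7 (ENSMUSG00000030742.7, 126363824 to 126369570, minus strand). Its promoter is shown because it is the member whose value comes nearest to a call, with the ETS-type motif in capitals starting 2 bases after the start.
Lat promoter, chr7:126369519-126369818, minus strand: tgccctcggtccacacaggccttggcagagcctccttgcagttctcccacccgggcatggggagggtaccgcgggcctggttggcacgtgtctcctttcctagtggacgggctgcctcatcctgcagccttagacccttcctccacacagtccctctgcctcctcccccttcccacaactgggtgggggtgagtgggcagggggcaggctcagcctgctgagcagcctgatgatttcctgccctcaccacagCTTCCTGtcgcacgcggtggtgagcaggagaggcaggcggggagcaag
Lat had 259 and 289.9 CPM in TOXFL-positive and 231 and 209 CPM in TOXFL-negative cells, and 250.5 and 264 CPM in TOXdeltaN-positive and 236 and 221 CPM in TOXdeltaN-negative cells. All 4 positive libraries lay above all 4 negative ones, as for 8.22% of tested genes. Group means were 274 ± 22.2 CPM in TOXFL-positive, 220.0 ± 15.4 in TOXFL-negative, 257 ± 9.72 in TOXdeltaN-positive and 229 ± 10.1 in TOXdeltaN-negative cells (SD, n = 2 each).

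The log2 fold change of Lat was 0.32 with TOXFL (SE 0.0980, 95% interval 0.098 to 0.54, edgeR adjusted p 0.218) and 0.17 with TOXdeltaN (SE 0.0979, 95% interval -0.049 to 0.39, edgeR adjusted p 0.493). On average it was 0.24 (SE 0.0692), or 18.5% higher with a 95% interval of 6.36% to 32.0%, and the edgeR adjusted p of 0.0915 missed the threshold. The blocked fit gave the same 0.24 (SE 0.0654) with an edgeR adjusted p of 0.0380 and called it, as it did 12.7% of all genes and 6.04% as higher. DESeq2 also called it, with an adjusted p of 0.0302 where 7.94% of genes were called, and edgeR without a filter on low counts gave an adjusted p of 0.0406. The TOXFL effect was 0.32 with an adjusted p of 0.0919 in the blocked edgeR fit and 0.107 in DESeq2.

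The call of Lat depended on single libraries. In the blocked fit the average effect stayed between 0.19 and 0.30 on the log2 scale. It was called in 3 of 8 omissions, those of TOXFL-positive replicate 1 (edgeR adjusted p 0.0430), TOXdeltaN-positive replicate 1 (0.00549) and TOXdeltaN-positive replicate 2 (0.0258). It was lost without TOXFL-positive replicate 2 (edgeR adjusted p 0.134), TOXFL-negative replicate 1 (0.0752), TOXFL-negative replicate 2 (0.218), TOXdeltaN-negative replicate 1 (0.120) and TOXdeltaN-negative replicate 2 (0.239). Without the block, leaving out TOXdeltaN-positive replicate 1 gave an edgeR adjusted p of 0.0273, and the other 7 omissions stayed above the threshold, up to 0.288. Corrected for transcript length, which is 1235 bases for Lat, the average effect was 0.12 (SE 0.0671, edgeR adjusted p 0.349), the TOXFL effect 0.23 (adjusted p 0.323) and the TOXdeltaN effect 0.011 (adjusted p 0.977). With correction and block together the average was 0.12 with an edgeR adjusted p of 0.214. The median gene of over 1000 and up to 2000 bases was itself 0.075 higher in TOXFL-positive than in TOXFL-negative cells and 0.12 higher in TOXdeltaN-positive than in TOXdeltaN-negative cells.

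**Figure D3:**
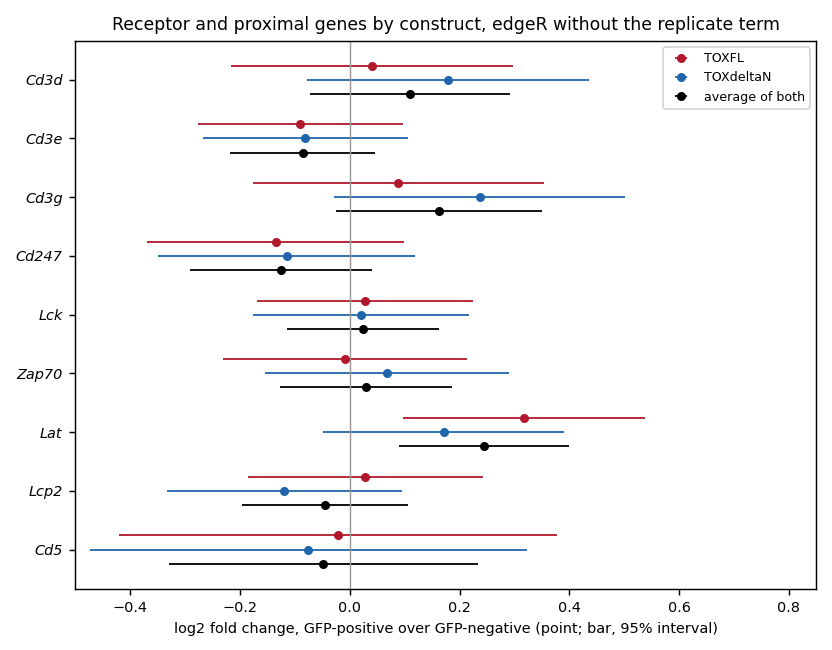
Log2 fold changes of the 9 genes, positive over negative cells, for TOXFL, for TOXdeltaN and for their average, with 95% intervals from the edgeR fit. The interval of Lat excludes 0 with TOXFL and on average, and the intervals of the other 8 genes include it.

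Lcp2 encodes SLP-76, the cytosolic adaptor that joins LAT, and lies on chromosome 11 (ENSMUSG00000002699.13, 34046920 to 34092295, plus strand). It had 309 and 331 CPM in TOXFL-positive and 303 and 324 CPM in TOXFL-negative cells, and 312 and 286 CPM in TOXdeltaN-positive and 309 and 340.5 CPM in TOXdeltaN-negative cells. The groups overlapped for both constructs. Log2 fold changes were 0.028 with TOXFL and -0.12 with TOXdeltaN (edgeR adjusted p 0.926 and 0.614). In the blocked fit without TOXdeltaN-positive replicate 1 the TOXdeltaN effect was -0.24 with an edgeR adjusted p of 0.0251. With the length correction added, the same omission gave -0.13 with an edgeR adjusted p of 0.245. The Lcp2 transcript is the longest of the 9, at 3644 bases.

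Cd5, which dampens receptor signalling, did not separate by construct or GFP but did separate by replicate number. It lies on chromosome 19 (ENSMUSG00000024669.8, 10717116 to 10739002, minus strand). Its promoter is shown because its values fall into separate groups of libraries, and it holds the ETS-type motif, in capitals, 110 bases before the start.
Cd5 promoter, chr19:10738925-10739224, minus strand: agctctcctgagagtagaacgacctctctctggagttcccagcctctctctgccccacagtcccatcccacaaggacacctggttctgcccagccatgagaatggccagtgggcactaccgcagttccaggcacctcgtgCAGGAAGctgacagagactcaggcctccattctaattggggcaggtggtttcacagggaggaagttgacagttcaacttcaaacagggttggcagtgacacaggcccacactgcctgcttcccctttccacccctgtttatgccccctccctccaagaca
The replicate 2 libraries of Cd5 had 221 CPM in TOXFL-positive, 218 in TOXFL-negative, 230.2 in TOXdeltaN-positive and 239 in TOXdeltaN-negative cells. The replicate 1 libraries had 172, 181, 175 and 188 CPM in the same order of groups. Every replicate 2 library lay above every replicate 1 library, whereas positive and negative cells overlapped for both constructs. The average effect of being GFP-positive was -0.048 on the log2 scale, with a 95% interval of -0.33 to 0.23 in the fit without the block (edgeR adjusted p 0.862) and of -0.17 to 0.070 in the blocked fit.

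Between replicate numbers, Cd5 differed by 0.34 on the log2 scale (SE 0.0546, 95% interval 0.22 to 0.46), or 26.7% (16.4% to 37.8%), with an adjusted p of 0.0103 for the replicate term of the edgeR fit. That term called 3.02% of genes, 1.26% as higher in replicate 2. With the length correction it was 0.30 (edgeR adjusted p 0.00449). Over the 8 omissions it lay between 0.32 and 0.36 and was called in 2, those without either TOXdeltaN-positive library, with edgeR adjusted p-values of 0.00184 to 0.118 overall. Of the other 8 members none was called for this term, and 1, Lck, did not overlap between the numbers, being lower in replicate 2 by 0.10 on the log2 scale (edgeR adjusted p 0.267). Together 2 of 9 members did not overlap, against 6.49% of all genes. What the number marks is not given in the labels, so a difference of animal, culture day or library batch cannot be told apart here.

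Cd28 and Sla varied most like Cd5. Likeness was taken as the Pearson correlation of log2 CPM over the 8 libraries, among 8750 genes of at least 10 CPM. The nearest genes were Sla at 0.986, Cd28 at 0.981 and Hilpda at 0.973. These values are a description, since the libraries may share cultures. SLA is an adaptor that lowers receptor levels, and CD28 is the costimulatory receptor. Sla had 298.2 CPM in TOXFL-positive, 298.0 in TOXFL-negative, 309 in TOXdeltaN-positive and 312 in TOXdeltaN-negative replicate 2, and 236, 234, 229.8 and 245 CPM in replicate 1 of the same groups. Both genes belong to a list of other receptor signalling genes and were called higher in replicate 2, Sla by 0.37 (edgeR adjusted p 0.00611, 4 of 8 omissions) and Cd28 by 0.32 (edgeR adjusted p 0.0123, 2 of 8 omissions). Their average effects of being GFP-positive were -0.021 and -0.050.

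**Figure D4:**
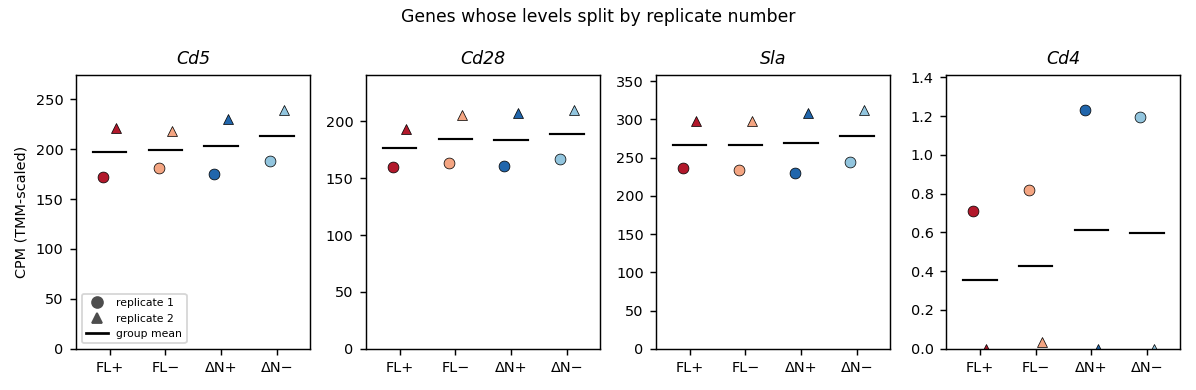
CPM of Cd5, Cd28, Sla and Cd4 in the 8 libraries, by group, with circles for replicate 1, triangles for replicate 2 and lines for group means. For Cd5, Cd28 and Sla every replicate 2 library lies above every replicate 1 library, and Cd4 is near 0 in replicate 2.

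The TOXFL and TOXdeltaN effects were set against each other for all 9 genes. The largest differences of effect were 0.15 for Lat (SE 0.138, 95% interval -0.16 to 0.46), 0.15 for Lcp2, -0.15 for Cd3g and -0.14 for Cd3d on the log2 scale. All 9 had an edgeR adjusted p of 1.00, and the blocked fit called none. The test thus found no gene of the 9 that responded unequally to the constructs, but the interval of Lat includes a TOXFL effect that is larger by 0.46. TOXFL-positive against TOXdeltaN-positive cells differed by -0.23 in Cd3d (SE 0.115, 95% interval -0.49 to 0.026, edgeR adjusted p 0.822), -0.19 in Cd3g (0.822) and -0.10 in Zap70 (0.864). TOXFL-negative against TOXdeltaN-negative cells differed by -0.098 to -0.0075, with an edgeR adjusted p of 1.00 for every gene of the 9.

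Genes whose libraries did not overlap in CPM were counted for each pair of groups. In TOXFL-positive against TOXFL-negative cells 4 of 9 did not overlap, with Cd3g and Lat higher and Cd3e and Cd247 lower, against 50.4% of tested genes. With TOXdeltaN 2 of 9 did not, Lat higher and Cd3e lower, against 42% of tested genes. Between the positive groups 2 of 9 did not overlap, Cd3d and Zap70 lower with TOXFL, against 32%, and between the negative groups 1 of 9 did not, Cd3e, against 33.5%. All positive against all negative libraries left Lat and Cd3e, 2 of 9, against 16.3% of tested genes.

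The members did not vary as a unit across the 8 libraries. Pearson's r of log2 CPM is given as a description, since the libraries may share cultures. It was 0.955 for Cd3d and Cd3g (Spearman's rho 0.857) and 0.829 for Cd3e and Cd247 (rho 0.762). TOXdeltaN-positive replicate 2 was the highest library in Cd3d and Cd3g (680 and 751 CPM), and their r without it is not given. Cd3e and Lat ran against each other at -0.869 (rho -0.833), as did Lck and Cd5 at -0.936 (rho -0.762). The genes nearest to Cd3d were Pa2g4 (0.992), Chchd2 and Naca, and those nearest to Cd3g were Mrps33 (0.993), Nap1l1 and Nedd8. Nearest to Cd3e were mt-Atp8 (0.991), Prkx and Prrc2a, and nearest to Cd247 were Gna13 (0.981), Glrx and Jade2. Nearest to Lck were Rras2 (0.980), Tpm3 and Rsl1d1, and nearest to Zap70 were Klrd1 (0.970), Malsu1 and Id3. Lat was nearest to Zwint (0.981), Cldnd1 and Cenpt, and Lcp2 to 2610021A01Rik (0.960), Stt3a and Bap1.

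The 9 genes have 12 promoter windows in RefSeq. CAGGAAG or its reverse complement was found on either strand in 8 of the 12 windows and in at least 1 window of 7 of the 9 genes, all but Cd3d and Cd3g, against 13.3% of 32851 promoters of the same 300 bases. The RUNX-type TGTGGT was found for 3 genes (16.8% of promoters), the TCF-type CTTTGA for 4 (16%) and the E-box CANNTG for 9 (72.3%). Genes with several windows have more chances of a match than the promoters in these shares. The letters searched were set after the promoters had been read, and a match is a description, not a site.

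Downstream of and around the 9 genes, a list of 60 other receptor signalling genes had 57 tested members (Ptcra, Fcer1g and Syk were too low). With edgeR's quasi-likelihood test the average effect of being GFP-positive called 0 of 57 higher and 1 lower, against 1.08% of all genes called lower. That gene was Dgka, whose product removes the diacylglycerol made after receptor triggering. Dgka had 466 and 484 CPM in TOXFL-positive and 611 and 573 CPM in TOXFL-negative cells, and 460.3 and 422 CPM in TOXdeltaN-positive and 558 and 528 CPM in TOXdeltaN-negative cells. All 4 positive libraries lay below all 4 negative ones, with a log2 fold change of -0.31 (SE 0.0618, edgeR adjusted p 0.0387). The call was kept in 2 of 8 omissions, those without either TOXdeltaN-positive library, with edgeR adjusted p-values of 0.00609 to 0.212. The median of the 57 was -0.12, and 13 of them had a positive fold change.

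The blocked fit called 14 of the 57 lower and 0 higher for the average effect, against 6.69% of all genes called lower and 6.04% higher. By role they were 2 of 8 coreceptors and receptor partners, 2 of 7 kinases, 6 of 24 adaptors and enzymes and 4 of 18 inhibitors, so they include genes that pass on the signal and genes that restrain it. Grap2, the GADS adaptor that links SLP-76 to LAT, was lowest at -0.45 (blocked edgeR adjusted p 0.00545). It had 71.4 and 54.6 CPM in TOXFL-positive and 105 and 95.3 CPM in TOXFL-negative cells, and 78.5 and 79.4 CPM in TOXdeltaN-positive and 103 and 82.8 CPM in TOXdeltaN-negative cells. Ptprc, the CD45 phosphatase that primes LCK, fell by 0.33 (blocked edgeR adjusted p 0.00829), and Plcg1, the phospholipase recruited by LAT, fell by 0.32 (0.0168). Prkcq, a protein kinase C of T cells, fell by 0.28 (0.0120), and Txk, a Tec-family kinase, by 0.30 (0.00982) in the same fit. Among the adaptors and enzymes Dock2 fell by 0.40, Itpkb by 0.39, Sos1 by 0.34 and Malt1 by 0.24, and among the inhibitors Pag1 by 0.38, Ptpn22 by 0.28 and Lax1 by 0.26, with blocked edgeR adjusted p-values of 0.0140 to 0.0360.

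In the blocked fit Cd8b1 fell and Cd8a did not pass the test. Cd8b1, the CD8 beta chain of the coreceptor that carries LCK, had 614 and 493 CPM in TOXFL-positive and 742 and 667 CPM in TOXFL-negative cells, and 624 and 568 CPM in TOXdeltaN-positive and 788 and 657 CPM in TOXdeltaN-negative cells. Its average effect was -0.31 (blocked edgeR adjusted p 0.00611, 5 of 8 omissions called; 0.0976 without the block). Cd8a, the alpha chain, had 764 and 757 CPM in TOXFL-positive and 745 and 697 CPM in TOXFL-negative cells, and 764 and 787 CPM in TOXdeltaN-positive and 751 and 714 CPM in TOXdeltaN-negative cells. In Cd8a every positive library lay above every negative one, and in Cd8b1 below, as for 8.22% and 8.08% of tested genes. The average effect of Cd8a was 0.079 (edgeR adjusted p 0.441), and the difference between the chains was not tested.

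The number called lower depended on which libraries were used, as did the number over all genes in the fit without the block. Shares over all genes are not given for the blocked omissions, so the counts that follow cannot be read as particular to the list. Leaving out 1 library at a time, the blocked fit called 0 of the list lower without TOXdeltaN-negative replicate 1, 1 without TOXdeltaN-negative replicate 2, 2 without TOXFL-negative replicate 2, 4 without TOXFL-negative replicate 1, 6 without TOXFL-positive replicate 1 and 10 without TOXFL-positive replicate 2. It called 16 lower without TOXdeltaN-positive replicate 2 and 25 without TOXdeltaN-positive replicate 1, including all 14 in both cases. Grap2 was called in 7 of the 8 omissions, and Ptprc, Cd8b1 and Dgka in 5 each. The 14 have a median transcript of 4904.5 bases, against 3032 for the other 43 and 1632 for the 9 receptor genes. Their average effects lay between -0.45 and -0.24, median -0.32, on the log2 scale in the blocked fit, and between -0.41 and -0.13, median -0.26, once the length correction was added. With the length correction added to the block, 13 of the 57 were called lower, against 5.74% of all genes, and 10 of the 13 were among the 14. Those of the 14 no longer called were Itpkb (-0.24), Sos1 (-0.15), Malt1 (-0.13) and Pag1 (-0.19), with edgeR adjusted p-values of 0.0696 to 0.160. In that fit 2 of the 57 were called higher, against 6.1% of all genes, Sh2d2a at 0.22 and Ubash3b at 0.20 (edgeR adjusted p 0.0150 and 0.0367). With the correction alone 4 were called lower, Cd2, Txk, Ptpn22 and Dgka, against 1.07% of all genes.

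By construct, the fit without the block called none of the 57. The lowest log2 fold changes were Shb (-0.82) and Grap2 (-0.67) with TOXFL, and Dock2 (-0.49) and Pag1 (-0.42) with TOXdeltaN. The largest values above 0 were Rnf128 (1.22) and Lyn (0.44) with TOXFL, and Rnf128 (0.81) and Lyn (0.47) with TOXdeltaN. Shb had 3 to 15 counts per library, Rnf128 6 to 50 and Lyn 79 to 228. The blocked fit called 3 lower with TOXFL, Grap2 at -0.68 (edgeR adjusted p 0.0116), Sos1 at -0.47 (0.0315) and Cd8b1 at -0.35 (0.0345), against 1.97% of all genes called lower, and none with TOXdeltaN. Sos1 was not called for the average effect once the length correction was added to the block.

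**Figure D5:**
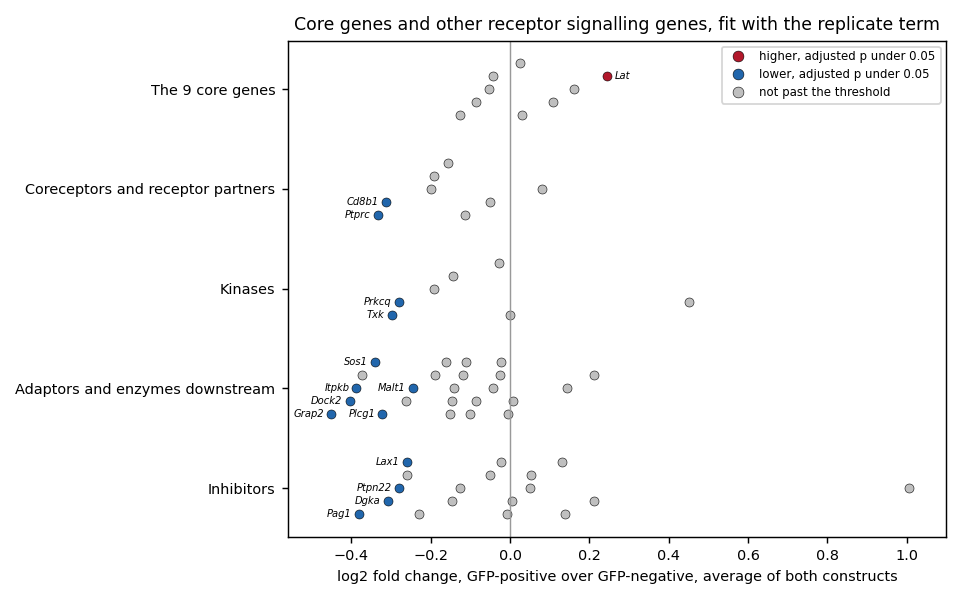
Average log2 fold changes, positive over negative cells, from the blocked fit, for the 9 receptor and proximal genes and for the 57 other receptor signalling genes by role, 1 point per gene and coloured by its call. Lat at 0.24 is the gene called higher, and the 14 called lower, such as Grap2 at -0.45 and Cd8b1 at -0.31, fall in all 4 roles.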

How the data were processed

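RNA-seq was analysed in 8 libraries of OT-I CD8 T cells, 4 groups of 2, prepared with SMART-Seq v4 and Nextera XT kits, per the labels' protocols, with 8 ng RNA as input. This chemistry does not mark strand. The submitters' processing notes name bcl2fastq 2.20, cutadapt, STAR 2.6.1, RSEM 1.2.28 and GRCm38. The authors deposited estimated counts per gene from RSEM, as whole numbers and not normalised. The rounding step and the annotation release are not given in the sources used here. The 92 spike-in entries, at 0 in every library, were left out.

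Counts were tested in R 4.3.3 with edgeR 4.0.16 (filterByExpr by group, TMM factors 0.989 to 1.02, quasi-likelihood test on group means of all 8 libraries, Benjamini-Hochberg over 13329 genes, threshold 0.05). CPM values use the TMM factors. The biological coefficient of variation was 0.132, and 0.0958 with the block. The script was tested on simulated counts. Alternatives were DESeq2 1.42.0, limma 3.58.1 (voom), RLE factors, no low-count filter, the replicate number as a block, fits of 2 groups only and leaving out each library. A correction for transcript length (principal transcripts of GENCODE M21, 13319 genes) was added after seeing the data. Intervals cover the spread between these libraries.

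The labels give no meaning for the replicate number. Libraries with the same number deviated together from their group means for all 6 pairs of groups, with correlations of 0.244 to 0.312 over tested genes, so the numbers were taken as pairing the libraries, inferred from the data. The 9 genes, the list of 60 others and the motifs were chosen with earlier results of these data known. All 9 genes are named. Of the list, genes called in any comparison with or without the block are named, and otherwise the 2 highest and 2 lowest per construct. For each of the 9, the 3 genes of most similar pattern are named.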

Additional observations from a re-analysis of the deposited data

How the results depend on the processing

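With RLE size factors and limma-voom every count of called genes and every call of the 9 genes was as in the edgeR fit or within 1.5 times. Of 846 values of single genes compared over settings, 834 kept their call, 12 passed the threshold only under the alternative, and 0 called values changed sign. Among the 834, 93 values changed sign while passing the threshold in neither setting. Genes called for TOXFL-positive against TOXFL-negative, TOXdeltaN-positive against TOXdeltaN-negative, the average effect and TOXFL-positive against TOXdeltaN-positive numbered 6, 4, 323 and 0 in the edgeR fit without the block. They numbered 464, 220, 1697 and 1 with the replicate block, 633, 299, 1576 and 1 with the block and the length correction, 314, 121, 1058 and 19 with DESeq2, and 678, 516, 1665 and 116 without the low-count filter. The difference of effects and the negative groups, at 0, gave 7 and 8 with DESeq2 and 45 and 37 without the filter. Fitting 2 groups alone called 2, 0 and 1 for TOXFL, TOXdeltaN and the positive groups. The list of 57 had 1 called gene, against 14 with the block, 15 with block and correction, 4 with the correction, 12 with DESeq2 and 16 without the filter. Leaving out each library gave 0 to 122 for TOXFL, 0 to 1571 for TOXdeltaN, 0 to 1 for the difference of effects, 5 to 2504 for the average, 0 to 704 for the positive groups, 0 to 1 for the negative groups and 0 to 18 for the list. The highest values for TOXdeltaN, the average and the positive groups came without TOXdeltaN-positive replicate 1. The cause was not tested. Where an omission leaves 1 library in a group, that library is assumed to vary like the others. With all 8 libraries, the blocked values that changed a call of a gene named here stand beside it, and the block changed no other call of the 9 genes. Some calls that changed when 1 library was left out are not given. Cd3e and Cd247 passed the threshold in neither the fit with nor the fit without the block when the length correction was left out.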

Other observations

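Cd4 separated by replicate number, as did Cd5, while Foxp3 and Zbtb7b overlapped. In replicate 2, Cd4 had 0 counts in TOXFL-positive, 1 in TOXFL-negative, 0 in TOXdeltaN-positive and 0 in TOXdeltaN-negative cells, against 21, 22, 36 and 35 counts in replicate 1 of the same groups. Foxp3, which marks regulatory T cells, had 21, 55, 13 and 23 counts in replicate 2 and 47, 65, 72 and 92 counts in replicate 1 of those groups. Zbtb7b, a CD4-lineage factor, had 62, 27, 29 and 34 counts in replicate 2 and 27, 48, 34 and 32 in replicate 1. The summed level of these 3 genes was 1.68 to 4.85 CPM in positive and 1.91 to 5.44 CPM in negative libraries. Their part in the replicate difference of Cd5 was not tested.

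Of the 57 tested genes of the list of other receptor signalling genes, 6 were called higher and 3 lower in replicate 2. These calls came from the replicate term of the blocked edgeR fit, which called 1.26% of all genes higher and 1.76% lower. The higher ones were Sla, Cd28, Tespa1 (0.34), Sh2d2a (0.33), Ubash3b (0.30) and Ptpn6 (0.29), and the lower ones Cd4, Pag1 (-0.45) and Themis (-0.27) on the log2 scale. Ptpn6 encodes the SHP-1 phosphatase, an inhibitor of the receptor signal that also acts through CD5.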
